A study of Mus musculus with 20 samples.

Results

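The 10 genes described here encode the cyclins and cyclin-dependent kinases (Cdks) that drive the division of a cell: the D-type cyclins Ccnd1, Ccnd2 and Ccnd3, the E-type cyclins Ccne1 and Ccne2, cyclin A2 (Ccna2), the B-type cyclins Ccnb1 and Ccnb2, and the kinases Cdk1 and Cdk2. They were chosen by name, with earlier results of these data known. All 10 were found among the 20377 gene symbols of a table of RNA sequencing counts. The study asked how gene expression in Fancd2-/- mice, which lack a protein of the Fanconi anaemia DNA repair pathway, changes on oxymetholone, a synthetic androgen. Every mouse was male, of the 129S4 strain and 4 months old, and had eaten chow with 300 mg/kg oxymetholone, or placebo chow, for 3 months from weaning. KSL cells (cKit+ Sca1+ Lin-, a marrow fraction rich in blood stem and progenitor cells) came from Fancd2-/- mice on oxymetholone, Fancd2-/- mice on placebo, wild-type mice on oxymetholone and wild-type mice on placebo. Each of these 4 groups had 3 libraries, and each KSL library was a pool of 5 mice. Each oxymetholone KSL library was paired with a placebo library of its own genotype that shared its flow cytometer setting. No pair held both genotypes, so a genotype difference in KSL cells cannot be told apart from the settings of the pairs. Erythroblasts (Ter119+ CD71-high FSC-high cells) came from wild-type mice on oxymetholone and on placebo, with 3 libraries each and 1 mouse per library. Whole bone marrow of placebo mice gave 1 library per genotype, each from 5 mice. Fancd2-/- erythroblasts were not analysed here. The labels give no other allele or agent, and no p-value covers more than the spread between these pools or mice.

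A cyclin has no enzyme activity of its own. It binds a Cdk, switches the kinase on and directs it to its substrates, and the complex ends when the cyclin is degraded. D-type cyclins pair with Cdk4 and Cdk6, respond to growth factors and start the phosphorylation of the retinoblastoma protein. E-type cyclins with Cdk2 carry the cell into DNA synthesis, cyclin A2 acts with Cdk2 in DNA synthesis and with Cdk1 later, and B-type cyclins with Cdk1 bring about mitosis. The transcripts of Ccna2, Ccnb1, Ccnb2 and Cdk1 are known to build up late in the cycle and are nearly absent from resting cells. In bulk RNA, fewer cells in cycle and less RNA per cycling cell cannot be told apart. Most long-term blood stem cells are at rest, while early erythroblasts divide quickly.

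Reads in the rows kept numbered 10.8 M to 121 M per KSL library (12 libraries), 17.2 M to 20.8 M per erythroblast library (6) and 100.2 M and 107 M in whole marrow. Levels are CPM, the counts of a gene relative to its library's total, scaled by TMM within each cell population. Fancd2 itself was at 6.63 to 8.79 CPM in the Fancd2-/- KSL libraries and at 16.6 to 23.4 CPM in the wild-type ones, as the labels say. The summed level of 7 KSL marker genes (all 7 in the table) was 2940 to 3786 CPM in Fancd2-/- and 3970 to 4573 CPM in wild-type KSL libraries, so the genotypes did not overlap. Mast cell and basophil markers (4 genes) summed to 12.8 to 24.4 CPM in Fancd2-/- and 7.76 to 15.5 CPM in wild-type KSL libraries. In erythroblasts the KSL markers summed to 0.341 to 1.001 CPM. The Fancd2-/- placebo library of replicate 3 stood apart. Its log2 levels fell by 0.187 per doubling of transcript length, against slopes of -0.0444 to 0.103 in the other 11 KSL libraries, and 4 stromal markers summed to 87.1 CPM in it against 14.9 to 27.4 CPM elsewhere. In replicate 2 of the same group, 8 erythroblast markers summed to 270.4 CPM and 6 neutrophil markers to 216 CPM, against at most 96.1 and 61.2 CPM in the other 11. The part of these library differences in the results was not tested beyond refits without each library. Of the 10 members, Ccnb1 has near-identical copies: 86.3% of its transcript is matched elsewhere in the genome at 95% identity or more, in stretches of up to 1243 bases on 6 chromosomes, and no other member had such a match. How reads with several matches were counted is not given in the sources used here, so the level of Ccnb1 is uncertain.

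The regions just before the starts of the late-cycle genes are shown because these genes moved together in the KSL libraries. The letters searched for, on both strands, were CCAAT, bound by the factor NF-Y, and the cell cycle homology region (CHR), bound by the DREAM and MuvB complexes. The CHR was searched as TTTGAA or as one of its variants, which are TTCGAA or else TTTAAA or else CTTGAA. Sites of the E2F factors were searched as well, as TTCCCGC or else TTGGCGC or else TTCGCGC or else TTGCCGC, and are left in lower case. The window ran from 250 bases before to 50 after the deposited transcript start. Capitals mark CCAAT and CHR letters, or their reverse complement. Sequences are from mm9 and read 5′ to 3′ on the strand of the gene.
Ccnb2, chr9:70269362-70269481, minus strand: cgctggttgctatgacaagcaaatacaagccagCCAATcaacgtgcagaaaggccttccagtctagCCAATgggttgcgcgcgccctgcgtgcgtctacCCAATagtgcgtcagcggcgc
Cdk1, chr10:68815687-68815780, minus strand: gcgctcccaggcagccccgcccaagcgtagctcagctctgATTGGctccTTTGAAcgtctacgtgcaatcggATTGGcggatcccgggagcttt
Ccna2, chr3:36470923-36470952, minus strand: ccctcATTGGtttatttcaatagtcgcggg
Ccnb1, chr13:101556484-101556513, minus strand: actggCCAATgaggagcgagcggcccgggg

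Ccnb2 has CCAAT at -87, -54 and -21 from its start (the base before the start is -1) and TTTGAA at -167 and 5. Cdk1 has the reverse of CCAAT at -208, -80 and -48 and TTTGAA at -71 and -15. Ccna2 has the reverse of CCAAT at -29 and CTTGAA at -1. Ccnb1 has CCAAT at -99 and -67 and TTTAAA at -42. Among the 10 members, 7 hold CCAAT against 38.2% of 20322 windows of all genes, 6 hold a CHR against 33.0%, and 4 hold both against 13.4%. The 4 with both are Ccna2, Ccnb1, Ccnb2 and Cdk1. Ccnd2 (TTTGAA at -171) and Ccne1 (TTTAAA at -15) hold a CHR without CCAAT. E2F letters were found in 3 members (Ccnb1, Cdk1 and Cdk2) against 13.1% of windows. A match of letters is a description and not a site that was measured here.

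Among the D-type cyclins, KSL cells carried all 3 transcripts. Ccnd2 (NM_009829, chr6:127075727-127101066, mm9) was at 785, 800.2 and 737 CPM in wild-type placebo libraries and Ccnd3 (NM_007632, chr17:47730416-47736637) at 213.5, 239 and 210.5 CPM. Per kilobase of transcript the levels on wild-type placebo were 136 ± 5.84 for Ccnd2, 112 ± 7.86 for Ccnd3 and 27.98 ± 1.19 CPM per kb for Ccnd1 (SD, n = 3). Ccnd2 was thus 49.3% ± 0.716, Ccnd3 40.6% ± 1.31 and Ccnd1 10.2% ± 0.629 of the D-type level.

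Ccnd1 (NM_007631, chr7:152115836-152125830), the D-type cyclin best known as a growth factor target, separated the genotypes. On placebo it was at 154, 136 and 271 CPM in Fancd2-/- libraries and at 109.8, 102.1 and 102.0 CPM in wild-type ones. On oxymetholone it was at 175, 144 and 189.6 CPM in Fancd2-/- and at 94.2, 103 and 84.7 CPM in wild-type libraries. All 6 Fancd2-/- libraries lay above all 6 wild-type libraries, and the highest Fancd2-/- library on placebo was replicate 3. By edgeR, Fancd2-/- placebo libraries were at a log2 difference of 0.83 ± 0.21 (SE, adjusted p = 0.0681) from wild-type, and oxymetholone libraries at 0.84 ± 0.21 (adjusted p = 0.212), so neither was called at an adjusted p under 0.05. DESeq2 called both (adjusted p = 0.00487 and 0.0217), as did limma voom with quality weights (0.0305 and 0.00769). These methods called more genes of every kind. On placebo DESeq2 called 809 genes and limma voom 1468, against 170 of 13259 (1.28%) by edgeR. On oxymetholone DESeq2 called 86, against 17 by edgeR. Without Fancd2-/- placebo replicate 3 the placebo difference was 0.47 (edgeR adjusted p = 0.131). Its share of the D-type level was 17.5% ± 5.46 in Fancd2-/- placebo and 14.3% ± 1.33 in Fancd2-/- oxymetholone KSL cells, against 9.14% ± 0.468 in wild-type cells on oxymetholone.

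Ccnd2 and Ccnd3 did not separate the genotypes. Ccnd2 was at 759, 775 and 574 CPM in Fancd2-/- placebo libraries, which overlapped the wild-type range. Its log2 genotype difference by edgeR was -0.15 ± 0.14 with placebo chow (adjusted p = 0.567) and 0.21 ± 0.14 with oxymetholone (adjusted p = 0.999). Without replicate 3 of the Fancd2-/- group these were -0.02 and 0.11. Ccnd3 was at 166, 216 and 265 CPM in Fancd2-/- placebo libraries, and its difference was -0.04 ± 0.19 on placebo and 0.03 ± 0.19 on oxymetholone. The 95% interval of the Ccnd3 difference on placebo ran from -0.45 to 0.37, so a change of that size in either direction was within error.

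The E-type cyclins were the scarcest members in KSL cells. Ccne1 (NM_007633, chr7:38883003-38892509) was at 15.1, 19.4 and 15.3 CPM in wild-type and at 18.7, 21.7 and 26.7 CPM in Fancd2-/- placebo libraries, and the groups overlapped. On oxymetholone it was at 15.3, 18.7 and 15.9 CPM in wild-type and 18.8, 21.9 and 23.4 CPM in Fancd2-/- libraries, so the lowest Fancd2-/- library lay only just above the highest wild-type one. By edgeR the diets gave log2 genotype differences of 0.42 ± 0.17 (placebo, adjusted p = 0.201) and 0.36 ± 0.17 (oxymetholone, adjusted p = 0.907), and the first was 0.28 without Fancd2-/- placebo replicate 3. Ccne2 (NM_001037134, chr4:11118501-11131829) was at 15.9, 21.5 and 25.8 CPM in wild-type and 38.0, 27.2 and 18.2 CPM in Fancd2-/- placebo libraries, and its difference there was 0.40 ± 0.26 (edgeR adjusted p = 0.401). Leaving out Fancd2-/- placebo replicate 1 gave 0.12, replicate 3 of that group 0.64 and wild-type placebo replicate 1 0.25. On oxymetholone the Fancd2-/- libraries of Ccne2 (28.4, 45.8 and 28.6 CPM) all lay above the wild-type ones (20.8, 21.9 and 23.0 CPM), with a difference of 0.64 ± 0.26 (edgeR adjusted p = 0.759), or 0.38 without Fancd2-/- oxymetholone replicate 2. Ccne1 made up 54.5% ± 6.43 of the E-type level per kilobase in wild-type placebo KSL cells, so neither E-type gene outweighed the other beyond the spread between libraries.

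**Figure D1:**
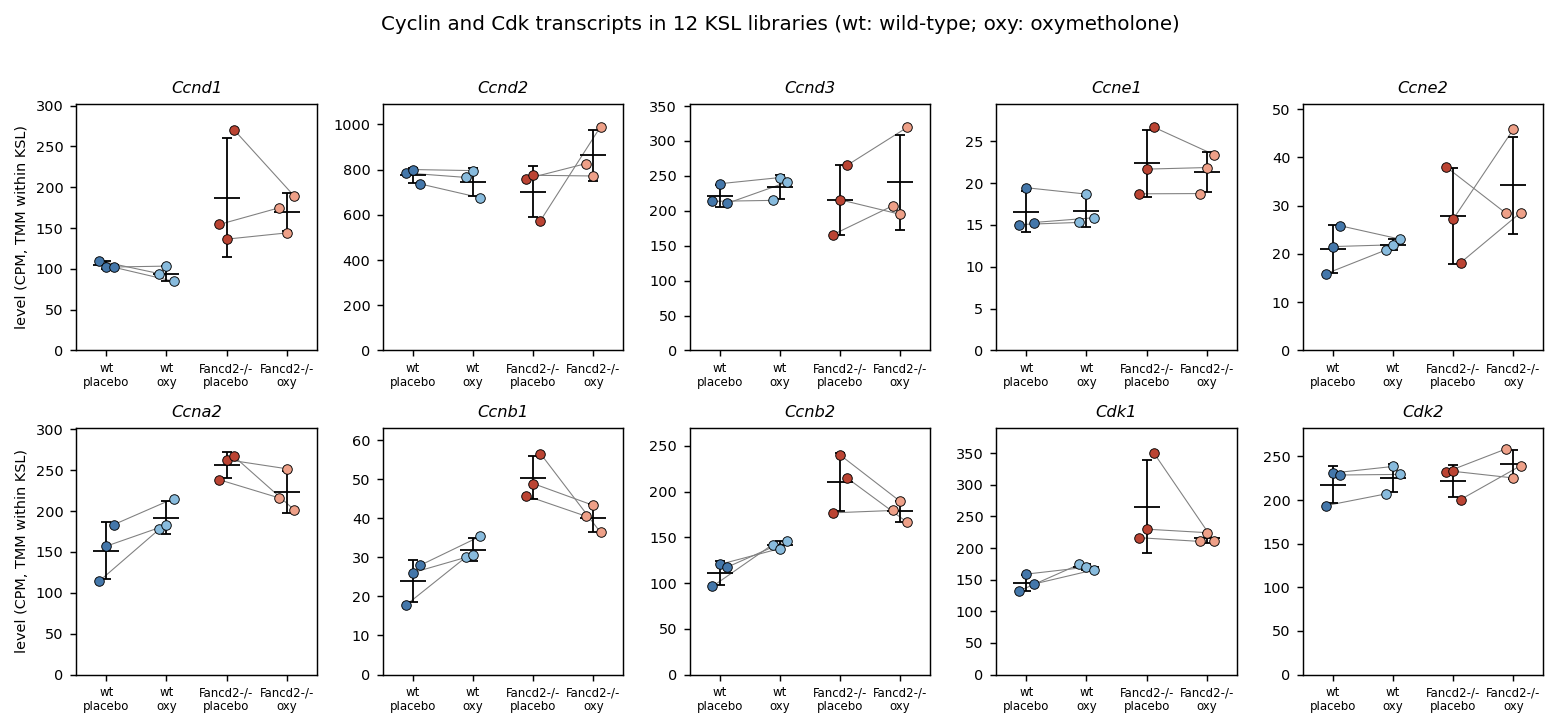
Level of each gene (CPM, linear axis from 0) in the 12 KSL libraries by genotype and diet, with points for libraries, bars for mean ± SD (n = 3) and grey lines joining the libraries of a pair. The group means of Ccna2, Ccnb1, Ccnb2 and Cdk1 are lowest in wild-type placebo and highest in Fancd2-/- placebo cells, though single libraries overlap for all but Ccnb1. Ccnd1 follows genotype on both diets.

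The late-cycle members were higher in Fancd2-/- than in wild-type KSL cells on placebo, a comparison in which no pair held both genotypes. Ccnb1 (NM_172301, chr13:101548694-101556441), which with Cdk1 triggers entry into mitosis, was at 45.8, 48.9 and 56.6 CPM in Fancd2-/- and at 17.8, 26.1 and 27.98 CPM in wild-type libraries. Its log2 difference was 1.07 ± 0.17 (SE). Ccnb2 (NM_007630, chr9:70255496-70269361), the second B-type cyclin, was at 177, 240.1 and 215 CPM against 96.3, 120.3 and 117 CPM (0.91 ± 0.13). Cdk1 (NM_007659, chr10:68799383-68815660) was at 216, 229.9 and 350.4 CPM against 132, 159 and 143 CPM (0.87 ± 0.16). The value of 350.4 CPM is that of replicate 3, and the other Fancd2-/- libraries of Cdk1 were also above every wild-type one. Ccna2 (NM_009828, chr3:36463787-36470918) was at 238, 263 and 267 CPM against 114, 157 and 183 CPM (0.75 ± 0.16). In all 4 genes, and in Ccnd1, the 3 Fancd2-/- libraries lay above the 3 wild-type ones, as they did for 11.8% of genes.

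Ccna2, Ccnb1, Ccnb2 and Cdk1 were the members called by edgeR (adjusted p = 0.0109 for Ccnb1, 0.00602 for Ccnb2, 0.0206 for Cdk1 and 0.0387 for Ccna2), and all were higher. Over all 13259 genes tested, 1.28% were called and 0.505% were called higher. The median log2 difference of the 10 members was 0.59, against -0.01 over all genes, with 8 of 10 above 0. Cdk2 (NM_183417, chr10:128134995-128142107), the partner of cyclins E and A, was at 232.0, 232.9 and 200.5 CPM against 194, 231 and 229 CPM, a difference of 0.02 ± 0.12 with an interval of -0.23 to 0.27. With each of the 6 placebo libraries left out in turn, 2 to 5 members were called. Ccnb1 and Ccnb2 were among them every time, and leaving out wild-type placebo replicate 1 or 2 left these 2 alone. Without Fancd2-/- placebo replicate 3 the calls were Ccnb1, Ccnb2 and Cdk1, with Cdk1 at 0.62 and Ccna2 at 0.73 (adjusted p = 0.075). Fitted on the 6 placebo libraries only, no member was called (adjusted p = 0.0713 for Ccnb1 and Ccnb2), while 11 genes in all were.

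On oxymetholone the same comparison gave smaller differences for the late-cycle members. Ccnb1 was at 40.5, 43.3 and 36.4 CPM in Fancd2-/- and 30.1, 30.5 and 35.4 CPM in wild-type libraries, which left a gap of less than 1 CPM between the groups. Its log2 difference was 0.32 ± 0.16. That of Ccnb2 was 0.32 ± 0.13, of Cdk1 0.34 ± 0.16 and of Ccna2 0.21 ± 0.16 (edgeR adjusted p = 0.765 to 0.999 for the 4), and Ccna2 was at 0.12 without Fancd2-/- oxymetholone replicate 2. No member was called by edgeR, where 0.128% of genes were. An unadjusted p under 0.05 was seen for 4 members (Ccnd1, Ccne2, Ccnb2 and Cdk1) and for 738 genes (5.57%). Ccnb1 (0.0698) and Ccna2 (0.197) were not among them. All 10 differences were above 0, with a median of 0.32 against 0.01 over all genes. Both genotype comparisons use separate libraries, and whether the difference itself changed with diet is the interaction given below.

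Averaged over both diets, a comparison added after the placebo and oxymetholone results were seen, 4 members were higher in Fancd2-/- KSL cells by limma voom with the pair as a random effect. The log2 differences were 0.80 ± 0.16 for Ccnd1 (adjusted p = 0.0213), 0.72 ± 0.13 for Ccnb1 (0.0149), 0.62 ± 0.10 for Ccnb2 (0.0108) and 0.59 ± 0.13 for Cdk1 (0.0366), and Ccna2 was at 0.50 ± 0.12 (0.0572). Over all genes 1.49% were called and 0.453% were called higher. In the same 4 genes all 6 Fancd2-/- libraries lay above all 6 wild-type libraries, which held for 1.66% of genes. Counted by diet, 5 members separated in this direction on placebo (11.8% of genes) and 6 on oxymetholone (5.69% of genes). The calls depended on single pairs. Without any 1 of the wild-type pairs no member was called. The limma voom adjusted p was then 0.0553 to 0.0912 for Ccnb1, 0.0577 to 0.0842 for Ccnb2 and 0.0857 to 0.142 for Ccnd1. Without Fancd2-/- pair 1 Ccnb1 and Ccnb2 were called, without pair 2 only Ccnd1, and without pair 3 there were 6.

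**Figure D2:**
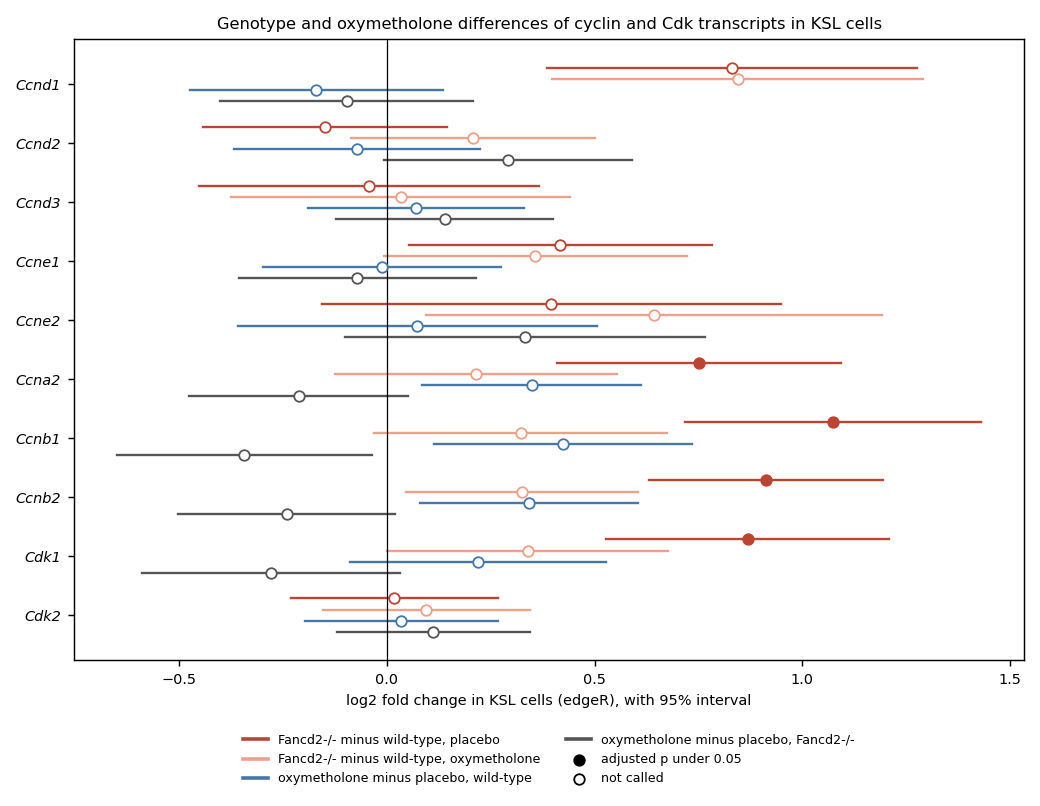
Log2 fold change of each gene in KSL cells with its 95% interval, for genotype on placebo, genotype on oxymetholone, and oxymetholone in each genotype, with filled points for an adjusted p under 0.05 by edgeR. The 4 filled points are the genotype differences of Ccna2, Ccnb1, Ccnb2 and Cdk1 on placebo, from 0.75 to 1.07.

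Oxymetholone was compared with placebo within the pairs of libraries that shared a flow cytometer setting. In wild-type KSL cells the late-cycle members were higher on oxymetholone in each of the 3 pairs. The log2 ratios of Ccnb1 were 0.76, 0.23 and 0.34, those of Ccnb2 0.56, 0.19 and 0.32, those of Ccna2 0.64, 0.22 and 0.23, and those of Cdk1 0.40, 0.10 and 0.21. The first pair gave the highest ratio for all 4 genes, and its placebo library (replicate 1) had the lowest level of each. A higher level in 3 of 3 pairs was seen for 6 members and for 16.1% of genes. The fitted changes were 0.43 ± 0.14 for Ccnb1 (unadjusted p = 0.0112), 0.35 ± 0.12 for Ccna2 (0.0138), 0.34 ± 0.12 for Ccnb2 (0.0144) and 0.22 ± 0.14 for Cdk1 (0.149), all with an edgeR adjusted p of 0.999. Without the first pair they were 0.27, 0.22, 0.25 and 0.14. No member and 0% of genes were called by edgeR, with 357 genes (2.69%) at an unadjusted p under 0.05. DESeq2 called 4 genes and limma voom 247, with no member among them.

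In Fancd2-/- KSL cells the same genes were lower on oxymetholone, or level, pair by pair. The log2 ratios of Ccnb1 were -0.18, -0.18 and -0.64, those of Ccna2 -0.14, -0.06 and -0.40, those of Cdk1 -0.04, -0.03 and -0.73, and those of Ccnb2 0.02, -0.34 and -0.37. The third pair, which holds the placebo library that stood apart, gave the lowest ratio each time. Ccnb1, Ccna2 and Cdk1 were lower in 3 of 3 pairs, as were 10.9% of genes. The fitted changes were -0.34 ± 0.14 for Ccnb1 (unadjusted p = 0.0312), -0.28 ± 0.14 for Cdk1, -0.24 ± 0.12 for Ccnb2 and -0.21 ± 0.12 for Ccna2, with edgeR adjusted p = 0.688 for each. Without the third pair Ccnb1 was at -0.17, Cdk1 at -0.03, Ccnb2 at -0.16 and Ccna2 at -0.10, and without the first pair Ccnb2 was at -0.36. No member and 0% of genes were called by edgeR, 903 genes (6.81%) had an unadjusted p under 0.05, and DESeq2 and limma voom called none.

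The other members showed no common direction on oxymetholone in Fancd2-/- cells. Ccnd2 had log2 ratios of 0.12, -0.01 and 0.79 (fitted 0.29 ± 0.14, adjusted p = 0.688), which was 0.06 without the third pair and 0.45 without the second. Ccne2 had ratios of -0.42, 0.75 and 0.65 (0.33 ± 0.20), and its fitted value was 0.70 without the first pair, 0.12 without the second and 0.19 without the third. Ccnd1 had ratios of 0.18, 0.08 and -0.51 (-0.10 ± 0.14), and its fitted value was -0.23 without the first pair, -0.18 without the second and 0.13 without the third. In wild-type cells the fitted values of the 6 members outside the late-cycle group were -0.17 (Ccnd1) to 0.07 (Ccne2).

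The difference between the oxymetholone effects of the genotypes was tested as an interaction. It was -0.77 ± 0.20 for Ccnb1 (unadjusted p = 0.00224), -0.58 ± 0.17 for Ccnb2 (0.00475), -0.56 ± 0.17 for Ccna2 (0.00643) and -0.50 ± 0.20 for Cdk1 (0.0288), all with an edgeR adjusted p of 0.953. Ranked by p among the 13259 genes, these were places 10, 20, 34 and 232. No member and 0% of genes were called, with 457 genes (3.45%) at an unadjusted p under 0.05. DESeq2 called 1 gene, which was no member, and limma voom none. The 4 values stayed below 0 with any pair left out (Ccnb1 -0.89 to -0.61), and that of Cdk1 was -0.27 without Fancd2-/- pair 3. Ccna2, Ccnb1 and Cdk1 were higher in 3 of 3 wild-type pairs and lower in 3 of 3 Fancd2-/- pairs, a pattern of 1.52% of genes. For Ccnb1 the 4 groups did not overlap and lay in the order Fancd2-/- placebo (50.4 ± 5.54 CPM), Fancd2-/- oxymetholone (40.1 ± 3.49), wild-type oxymetholone (32.0 ± 2.96) and wild-type placebo (23.9 ± 5.45). The order of the means was the same for Ccna2, Ccnb2 and Cdk1, but Ccnb2 and Cdk1 overlapped between the Fancd2-/- groups, and every neighbouring pair of groups overlapped for Ccna2.

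Across the 12 KSL libraries the late-cycle members varied together. Pearson's r of log2 CPM between pairs of Ccna2, Ccnb1, Ccnb2 and Cdk1 ran from 0.82 to 0.98, which includes the differences between the groups. With each group's mean removed it was 0.95 between Ccna2 and Ccnb1 and 0.73 between Ccna2 and Ccnb2, and 0.32 between Ccna2 and Cdk1. With group differences included, Cdk1 was also alike to Ccnd1 (0.86) and Ccne1 (0.86) but not to Cdk2 (-0.02). With group means removed, the r of Cdk1 was 0.75 with Ccnd1 and 0.74 with Ccne1. That was above its r with Ccnb1 (0.54), Ccnb2 (0.38) or Ccna2. Fancd2-/- placebo replicate 3, the library that stood apart, was the highest of its group in Cdk1 (350.4 CPM), Ccnd1 (270.7 CPM) and Ccne1 (26.7 CPM). The within-group r was not computed without that library, so how far it rests on it was not tested. These are descriptions over 12 libraries that differed in depth and in the slope of level with transcript length.

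**Figure D3:**
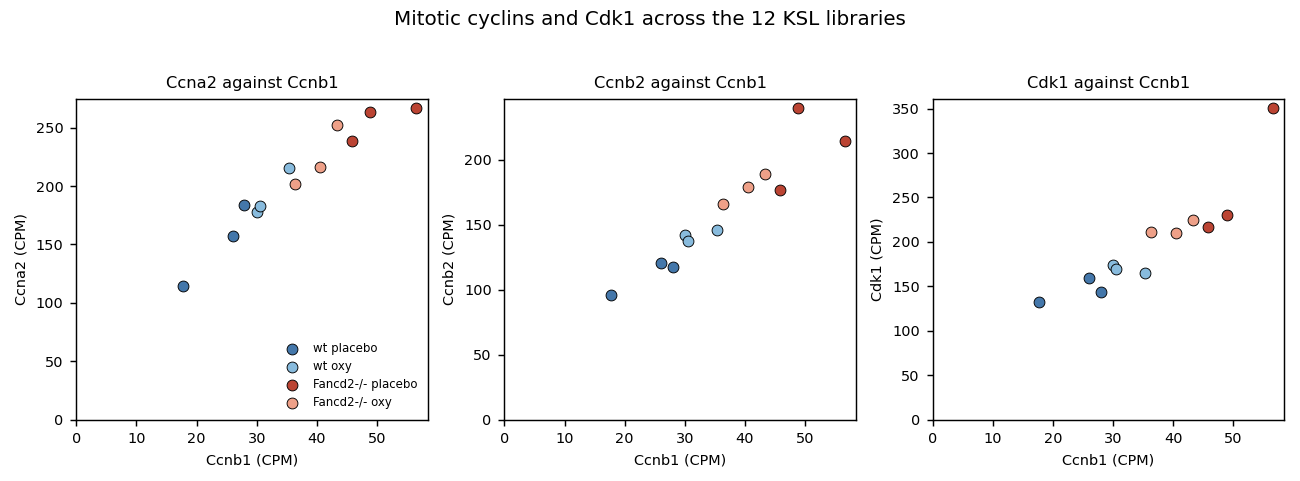
Levels of Ccna2, Ccnb2 and Cdk1 against Ccnb1 (CPM, axes from 0) in the 12 KSL libraries, coloured by group. Points climb from the wild-type placebo to the Fancd2-/- placebo libraries, and Cdk1 at 350.4 CPM in Fancd2-/- placebo replicate 3 lies above the line of the others.

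Among 9632 genes with a mean of at least 10 CPM, 3 were taken as most like each member by r over the 12 libraries. Prc1, a spindle midzone protein, was nearest to Ccna2 (r = 0.98), ahead of Cep55 and Ccdc99 (both 0.96). Tacc3 (0.97), Cenpa (0.97) and D2Ertd750e (0.96) were nearest to Ccnb1, and the same 3 genes, led by the centromere histone Cenpa (0.98), were nearest to Ccnb2. Birc5, or survivin (0.99), the Cdk-binding subunit Cks1b (0.98) and thymidylate synthase Tyms (0.97) were nearest to Cdk1. Ccnd1 went with Zmat3 (0.97), Bcam (0.96) and Bok (0.95). Ccnd3 went with Pfkl (0.97), Capn1 and Nup188 (both 0.96), Ccnd2 with Smad5 (0.92), Pank1 and Dmwd (both 0.89), Ccne1 with Mtfp1 (0.94), 2010317E24Rik and Nutf2 (both 0.93), Ccne2 with Gas2l3 (0.96), Entpd5 and Ints8 (both 0.94), and Cdk2 with Glyr1 (0.92), Wdr76 and D330012F22Rik (both 0.84).

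Other genes of the same machinery were taken from 4 lists. In Fancd2-/- against wild-type KSL cells on placebo, edgeR called 0.505% of all genes tested higher and 0.777% lower. Of 10 Cdk partners and activators, all tested, 2 were higher in Fancd2-/- placebo cells: Cdc25c, a phosphatase that activates Cdk1 (log2 0.96 ± 0.17, edgeR adjusted p = 0.0187), and Cks1b (0.69 ± 0.14, 0.0353). The list's median was 0.32. Of 9 Cdk brakes, 7 passed the low-count filter, and 1 was lower, Cdkn1c, which encodes the inhibitor p57 (-0.78 ± 0.13, 0.0128). Their median was -0.02. Of 10 genes of cyclin destruction and its control 1 was higher, Ube2c, the ubiquitin-conjugating enzyme of the anaphase-promoting complex (1.16 ± 0.20, 0.014), with 9 of 10 above 0 and a median of 0.18. Of 20 relatives, cyclins and Cdks of which most but not all act outside the core cycle, none was called, and the median was -0.05. The 1 at an unadjusted p under 0.05 was cyclin F, Ccnf (0.65 ± 0.19, edgeR unadjusted p = 0.00407, adjusted p = 0.101). It was higher, like the late-cycle members, and was named after its value was seen. The median over all genes was -0.01. In the other KSL comparisons of single diets or genotypes, and for oxymetholone in erythroblasts, edgeR called no gene of these lists.

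Erythroblasts carried a different set of cyclins from KSL cells. On placebo, wild-type erythroblasts held Ccnd3 at 1608, 1590.0 and 1638 CPM, but Ccnd2 at 1.72, 0.487 and 0.857 CPM and Ccnd1 at 2.19, 1.56 and 1.41 CPM, from 10 to 29 and 28 to 37 reads per library. Ccnd3 was 99.9% ± 0.0266 of the D-type level per kilobase there, against 40.6% in KSL cells. By edgeR, Ccnd3 was higher than in KSL cells by a log2 difference of 4.26 ± 0.13, and Ccnd2 (-8.22 ± 0.26) and Ccnd1 (-4.55 ± 0.17) were lower. The E-type cyclins were higher, Ccne1 by 6.36 ± 0.15 (528 ± 29.8 against 16.6 ± 2.47 CPM) and Ccne2 by 5.23 ± 0.18 (297 ± 43.7 against 21.1 ± 4.99 CPM). Ccna2, at 1795, 1800.3 and 1815 CPM, was the most abundant member by CPM and was higher by 4.97 ± 0.16.

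The B-type cyclins and the kinases were higher too, Ccnb2 by 3.88 ± 0.12, Ccnb1 by 3.79 ± 0.15, Cdk1 by 3.66 ± 0.12 and Cdk2 by 1.97 ± 0.11. All 10 members were called, 8 higher and 2 lower, where 91% of 12538 genes were called, 37.2% higher and 53.7% lower (adjusted p for the members 1.11e-14 to 5.44e-11). The median over all genes was -0.67, so the scaling matters: on the deposited matrix scaled to equal totals the median was -2.02, Ccne1 was at 5.01, Ccnb1 at 2.43 and Cdk2 at 0.60, and all 10 were still called in the same direction. On the CPM scale of each population Cdk2 was at 325 ± 0.934 in erythroblasts and 218 ± 21.0 CPM in KSL cells. Per kilobase the order in erythroblasts was Ccnd3 (817 ± 12.3 CPM per kb), Ccna2 (608 ± 3.44), Ccnb2 (405 ± 7.64), Ccne1 (264 ± 14.9) and Cdk1 (241 ± 2.86), of which Ccne1 and Cdk1 lay closest. Cdk1 exceeded Cdk2 1.70 ± 0.0223 times per kilobase in erythroblasts, and was 0.528 ± 0.0275 of it in wild-type placebo KSL cells and 0.969 ± 0.361 in Fancd2-/- placebo KSL cells. The Fancd2-/- placebo libraries were at 0.739, 0.782 and 1.39, and the last is replicate 3, the library that stood apart.

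**Figure D4:**
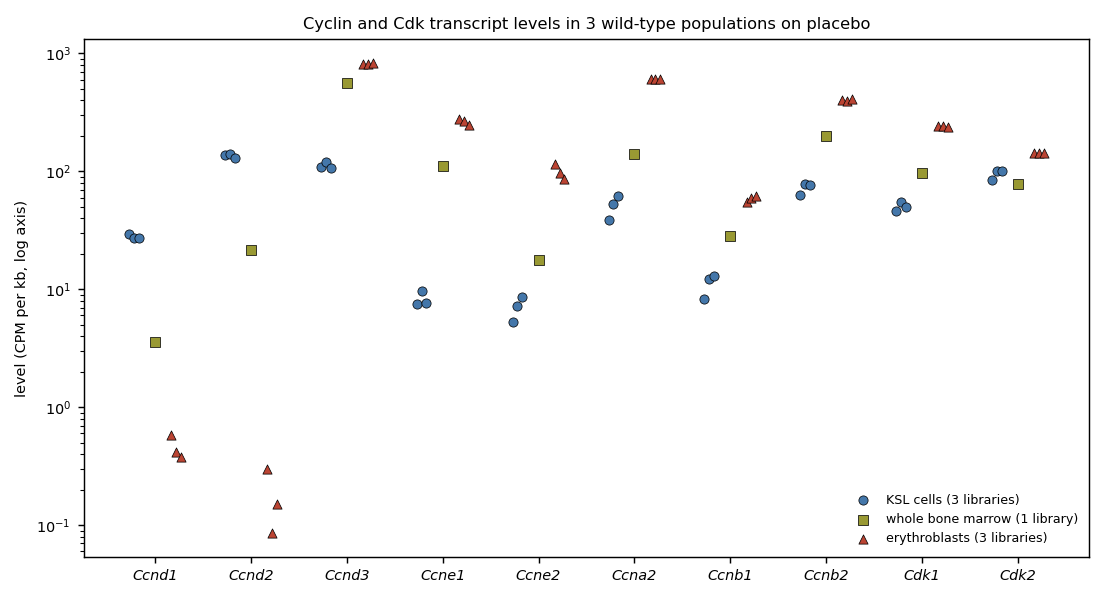
Level of each gene in CPM per kilobase of transcript (log axis) in wild-type placebo KSL cells, whole bone marrow and erythroblasts, 1 point per library. Ccnd1 and Ccnd2 fall from left to right within a gene while Ccnd3, Ccne1, Ccne2, Ccna2, Ccnb1, Ccnb2 and Cdk1 climb.

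The pathway lists were compared between erythroblasts and KSL cells in the same way, where 37.2% of all genes were called higher in erythroblasts and 53.7% lower. Of the 10 partners and activators 5 were higher in erythroblasts and 5 lower. The 4 at the smallest p by edgeR were the phosphatases Cdc25b (6.44 ± 0.16) and Cdc25c (3.27 ± 0.13), the Cdk-binding subunit Cks2 (5.12 ± 0.13) and Mnat1, which assembles the Cdk-activating kinase (-2.21 ± 0.14). The D-type partners Cdk6 (-3.04 ± 0.27) and Cdk4 (-1.65 ± 0.11) were also lower, and were named after their values were seen. Of 7 tested brakes 5 were higher, among them Cdkn2c (3.94 ± 0.13), Cdkn2d (5.19 ± 0.17) and Cdkn1b (5.32 ± 0.18), and Cdkn1c was lower (-5.97 ± 0.27). Of the 10 genes of cyclin destruction and its control 9 were higher (median 3.19). Btrc (3.57 ± 0.11), Ube2c (5.14 ± 0.16), Fzr1 (3.94 ± 0.13) and Fbxo5 (4.61 ± 0.16) were at the smallest p. Fbxo5 encodes an inhibitor of the anaphase-promoting complex, so the count gives no direction of destruction. Of the 20 relatives 15 were higher and 5 lower (median 1.24), with Ccnf (4.75 ± 0.13), Ccnt2 (3.42 ± 0.13), Cdk8 (2.64 ± 0.13) and Cdk12 (2.56 ± 0.14) at the smallest p.

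For oxymetholone in wild-type erythroblasts, no member differed from placebo beyond error. Ccna2 was at 1846, 1817 and 1826 CPM on oxymetholone against 1795, 1800.3 and 1815 CPM on placebo, a log2 change of 0.02 ± 0.05 with an interval of -0.10 to 0.13. The fitted values of the other members were -0.03 (Ccne2) to 0.07 (Cdk1), except for Ccnd1 (-0.32 ± 0.29) and Ccnd2 (-0.78 ± 0.45), which rest on 9 to 37 reads per library. Ccnd2 was at -0.21 without placebo replicate 1. No member and 0% of 9694 genes were called by edgeR (adjusted p of 0.9996 for every member), 123 genes (1.27%) had an unadjusted p under 0.05, and DESeq2 and limma voom called none.

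With levels scaled within each population, 9 of 10 members on wild-type placebo lay in whole bone marrow between their levels in KSL cells and erythroblasts. Ccnd3 was 95.7% of the D-type level in the wild-type and 95.2% in the Fancd2-/- library, and Ccnd2 3.67% and 3.94%. With 1 library per genotype there is no test, and the intervals are exact 95% binomial intervals that cover counting error only. Ccnd1 was at 19.3 CPM in Fancd2-/- and 13.3 CPM in wild-type marrow, a ratio of 1.45 (1.35 to 1.55, from 2058 and 1334 reads). The other 9 members had ratios of 0.971 to 1.06, against a median of 1.001 over 12424 genes. Ccnb1, at 61.9 and 61.1 CPM, had a ratio of 1.01 (0.978 to 1.05), and Cdk1 one of 1.02 (0.9997 to 1.03). On this scale Cdk2 was the only member lower in whole marrow (178 CPM in wild-type) than in both sorted populations. That place depends on the scaling. TMM factors over all 20 libraries were 1.37 to 1.46 in wild-type placebo KSL cells. They were 0.834 in wild-type marrow and 0.534 to 0.569 in placebo erythroblasts. A common scale would therefore raise marrow and erythroblast levels relative to KSL cells.

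**Figure D5:**
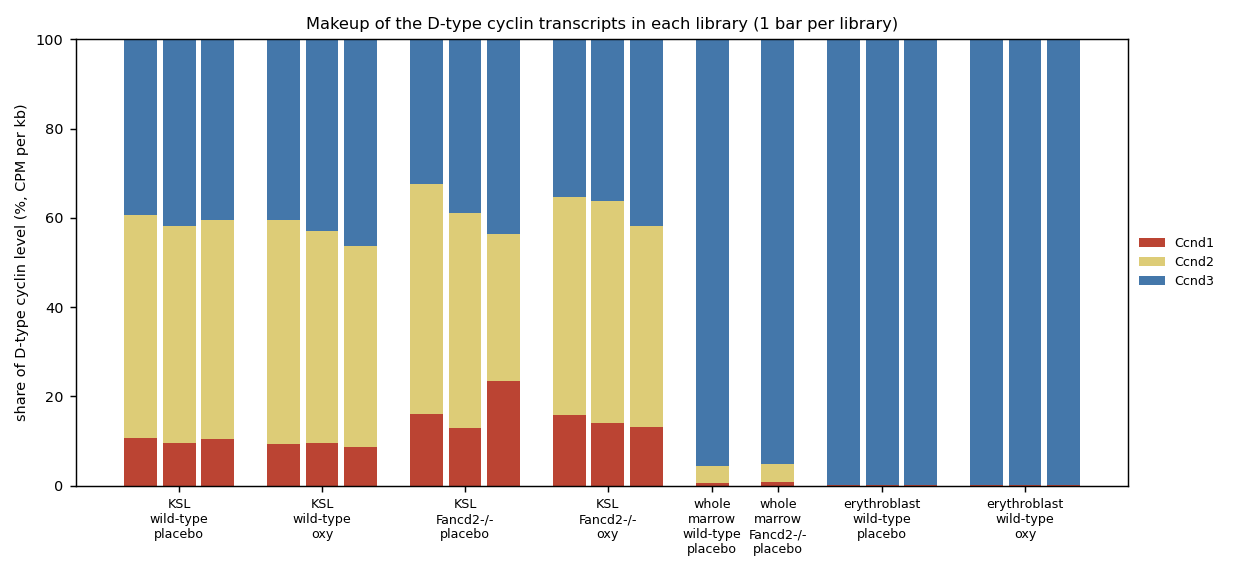
Share of Ccnd1, Ccnd2 and Ccnd3 in the summed D-type level (percent, from CPM per kilobase), 1 bar per library. Ccnd1 takes 12.9% to 23.5% in Fancd2-/- and 8.60% to 10.7% in wild-type KSL libraries, and Ccnd3 fills nearly the whole bar in erythroblasts.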

How the data were processed

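RNA sequencing of 20 libraries was used. The authors aligned 51-base reads with Bowtie to mm9 and used edgeR, per the labels; the sources used here do not give versions or the strand of counting. The deposited table holds counts for 26005 RefSeq rows, and the row with the largest total was kept for each symbol. The deposited normalised matrix holds a score, the counts scaled to 20 M per library and rounded, and served as an alternative. File starts count from 0, so 1 was added. One column of the table was matched to the sample with the closest name, Fancd2-/- placebo replicate 1.

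Tests used edgeR 4.0.16 (quasi-likelihood, robust, filterByExpr) in R 4.3.3 with Benjamini-Hochberg adjustment over all genes tested, and were checked on simulated data. Oxymetholone was fitted with the pair as a block (12 KSL libraries), genotype with group means. The design text ties each pair to a shared flow cytometer setting; deviations of paired libraries correlated at -0.016 to 0.572. Alternatives used DESeq2 1.42.0, limma 3.58.1 and others named below. The 10 members were named in every comparison, up to 4 called genes per list, and 3 genes most like each member. Members and lists were chosen with earlier results of these data known. Copies were sought with blastn and promoters read from NCBIM37. One sequence is not reported here.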

Additional observations from a re-analysis of the deposited data

How the results depend on the processing

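Of 80 results (10 members in 8 comparisons), 17 changed sign under at least 1 alternative, and each of these had a log2 value of at most 0.0961 in size in the fit reported. The count of members called for genotype on placebo was 0 on the 6 placebo libraries alone, where fewer libraries inform the spread, and 2 to 5 with a library left out. For genotype on oxymetholone it was 1 (Ccnd1) by DESeq2 and 1 by limma voom with quality weights. For genotype averaged over diets it was 0 to 6 with a pair left out. In erythroblasts against KSL cells all 10 were called under every alternative run.

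Among the 17, the genotype and oxymetholone values that crossed 0 included Ccnd1 on oxymetholone in Fancd2-/- cells (0.0454 by limma voom, -0.23 to 0.13 with a pair left out), Ccnd3 by genotype on placebo (-0.21 to 0.13 with a library left out), Cdk2 by genotype on placebo (-0.0102 on the scaled matrix, -0.039 to 0.0933 with a library left out) and Ccnd3 by genotype on oxymetholone (-0.18 by limma voom, -0.00785 on the scaled matrix, -0.21 to 0.17 with a library left out); the cause was not tested. The others were Ccne1 on oxymetholone in both genotypes, Ccne2 on oxymetholone in wild-type cells, the Ccnd1, Ccnd3 and Ccne1 interactions, Ccnd2, Ccnd3 and Cdk2 averaged over diets, and Ccne1, Ccne2, Ccnb1 and Cdk2 in erythroblasts on oxymetholone. With no replicate block in place of the pairing, no member was called for oxymetholone in either genotype (0 and 0) or for the interaction (0), as with the block, and the Ccnb1 interaction was -0.75. Genes called over the whole table for genotype on placebo numbered 170 by edgeR, 809 by DESeq2, 1468 by limma voom and 11 on the 6 libraries. For genotype on oxymetholone they numbered 17 by edgeR, 86 by DESeq2, 47 by limma voom and 0 on the 6 libraries, and for the mean over diets 198, or 492 by edgeR with no replicate block. Depth limits Ccnd1 and Ccnd2 in erythroblasts, at 9 to 37 reads per library.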
